A study of Mus musculus with 21 samples.

Results

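The genes described here are those of cholesterol synthesis together with targets and regulators of the transcription factor SREBP2, measured in N202 cells that were grown on foreign tissue. The members were 32 genes chosen by name: enzymes of the mevalonate pathway and of the steps from squalene to cholesterol, the SREBP regulators, enzymes of fatty acid synthesis and desaturation, a sterol carrier and a pair of sterol exporters. Of the 32, 31 had a probe set of their own among the 19937 genes of the arrays. The level of Acat2 was not analysed here, and it enters only the promoter counts. Of these 31, 28 were among the 7300 genes kept by a filter on dim signal, which required a group mean of at least 7.33 on the log2 scale in at least 1 of the 16 groups. Abca1, Abcg1 and Tm7sf2 were dimmer than that in every group.

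N202 is a mammary tumour line from Her-2/neu transgenic mice, used here as cells that carry H2B-GFP. All groups share the transgene, and all adapted cells were selected in G418 and sorted on GFP before their RNA was taken from cultures on plastic, so the arrays read cells that had left the tissue, and a shift in the mix of cells cannot be told apart from a shift in RNA per cell. Parental cells (P0, 2 arrays) were compared with cells grown for 1 to 4 passages (P1 to P4, 21, 42, 63 and 84 days in total) in dorsal skinfold chambers on brain (2 arrays a passage), bone marrow or lung (1 array a passage), with cells after 1 passage on breast tissue (1 array) and with P1 and P2 cells of a second, separate adaptation to brain (1 array each). The second array of each brain pair is labelled a technical replicate and, by the study's methods, came from a culture of its own of the same adapted cells, so every p-value below measures the spread between cultures of 1 adapted line. The 21 arrays were fitted together in limma with a mean per group, a lone array being assumed to vary like the paired ones, and a gene was called at a Benjamini-Hochberg adjusted p under 0.05 over all kept probe sets. Values are log2 RMA values, which set the same gene side by side across arrays and are not used here to rank one gene above another. The number of arrays limits the precision.

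All 10 mammary epithelial markers lay above 7.33 on every array, and all 5 markers of neurons, 5 of adipocytes, 6 of fibroblasts, 4 of endothelium and 4 of lung epithelium lay below it on every array. Among the glial and blood markers, Cnp, Mbp, Aldoc and Cd68 reached 7.33 on some arrays. The others measured, among them Mog, Mag, Gfap, Aqp4, Ptprc and Aif1, were below it on all. Cd68, a macrophage marker, moved with the groups, from 6.03 and 5.99 at P0 to 8.27 and 7.62 at brain P1 and 8.03 and 8.48 at brain P2. Aldoc, an astrocyte marker, read 8.60 and 10.51 at P0 and 6.55 and 6.87 at brain P1. Their part in the results below was not tested. The arrays with the highest floor, taken as the lower quartile of all probe sets, were the second array of each of brain P1 to P4 and lung P1.

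Cells make cholesterol from acetyl-CoA through mevalonate, isoprenoid units, squalene and lanosterol. When the sterol content of the endoplasmic reticulum is low, the protein SCAP escorts SREBP2 to the Golgi, where it is cleaved, and the freed fragment enters the nucleus and activates the genes of this pathway; when sterol is plentiful, INSIG proteins hold SCAP back. SREBP1, made from Srebf1, acts in the same way with a preference for fatty acid genes, and oxysterols that accumulate in sterol-rich cells activate LXR, which drives the exporters Abca1 and Abcg1. In brain, where blood lipoproteins do not enter, cells rely on cholesterol made locally. The level of a synthesis enzyme's mRNA is widely used as a readout of SREBP activity, though the arrays measure neither sterol nor the cleaved protein.

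SREBP binds a sterol element in promoters, usually next to boxes for NF-Y and Sp1. RefSeq promoter windows on GRCm38.p6, 300 bases each, were at hand for 24 members. The letters TCACNCCAC, a core of the sterol element, were searched on both strands together with CCAAT, the NF-Y box, and GGGCGG, a Sp1 box. CCAAT was found for 19 of the 24 members (79.2%) and in 37.4% of all 32851 windows, GGGCGG for 20 of 24 (83.3%) and in 35.7% of windows, and TCACNCCAC for 1 of 24 members, Hmgcs1, and in 1.24% of windows. A member counts if any of its windows holds the letters. Counted by window, CCAAT was in 20, GGGCGG in 22 and TCACNCCAC in 1 of the 29 windows of the members. A match is a string of letters and not a measured site. The 250 bases before the start are shown for 3 members with some of the widest ranges over the groups, namely Hmgcs1 (chr13:119690101-119690350, plus strand), Idi1 (chr13:8885356-8885605, plus strand) and Insig1 (chr5:28071162-28071411, plus strand). Capitals mark the letters searched: ATTGG is CCAAT read from the other strand, CCGCCC likewise stands for GGGCGG, and the single TCACCCCAC lies in Hmgcs1, starting at position -137.
Hmgcs1: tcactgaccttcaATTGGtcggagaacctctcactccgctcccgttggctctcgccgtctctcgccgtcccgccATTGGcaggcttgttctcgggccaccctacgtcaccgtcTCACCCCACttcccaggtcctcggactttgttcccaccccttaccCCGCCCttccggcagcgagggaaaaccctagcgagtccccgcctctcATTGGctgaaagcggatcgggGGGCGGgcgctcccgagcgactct
Idi1: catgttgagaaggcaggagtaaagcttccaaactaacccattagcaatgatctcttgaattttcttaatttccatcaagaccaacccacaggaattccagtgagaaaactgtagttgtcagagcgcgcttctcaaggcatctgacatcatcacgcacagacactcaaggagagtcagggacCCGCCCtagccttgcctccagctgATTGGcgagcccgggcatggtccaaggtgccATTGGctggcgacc
Insig1: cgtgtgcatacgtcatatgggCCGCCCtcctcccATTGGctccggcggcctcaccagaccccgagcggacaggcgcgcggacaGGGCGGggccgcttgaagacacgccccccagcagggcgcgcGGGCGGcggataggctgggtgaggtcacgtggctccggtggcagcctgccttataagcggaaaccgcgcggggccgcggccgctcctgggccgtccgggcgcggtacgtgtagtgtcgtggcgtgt
Within these 250 bases Hmgcs1 had 3 CCAAT and 2 GGGCGG boxes, Idi1 had 2 and 1, and Insig1 had 1 and 3.

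The levels of the 28 kept members varied together over the 16 groups. With each gene centred on its own mean over the groups, the median member stood at -1.05 on the array of second brain P1 and at -0.37 and -0.34 on the arrays of brain P2, and it was highest on lung P3 (0.55), bone marrow P1 (0.47) and bone marrow P4 (0.40). The median of all 7300 genes stayed between -0.19 and 0.07 on every array. On second brain P1 1 of 28 members lay above its own mean, and on lung P3 all 28 did. Over the 16 group means, which share arrays, normalization and culture, Pearson's r between members had a median of 0.665 over 378 pairs, of which 355 were above 0. Against the median of the other members, r was over 0.5 for 26 of 28, and 8.04% of the genes that are no members reached that r with the median of the set. Cyp51, the lanosterol demethylase, followed the set most closely (r = 0.948). Ebp, the sterol isomerase, followed it loosely (r = 0.342), and Fads1, the delta-5 desaturase, did not follow it (r = -0.01). The 8.04% belongs to all 16 groups, and no such share was computed with fewer. Without second brain P1 and lung P3, the groups farthest out, r was over 0.5 for 20 of 28. It was then -0.05 for Srebf1 (0.512 with them), so that relation rests on the 2 groups. For Fasn, Scd1, Srebf2, Dhcr7 and Acaca r was weaker without the 2 groups but stayed above 0. It was 0.366, 0.369, 0.379, 0.409 and 0.47 in that order.

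**Figure D1:**
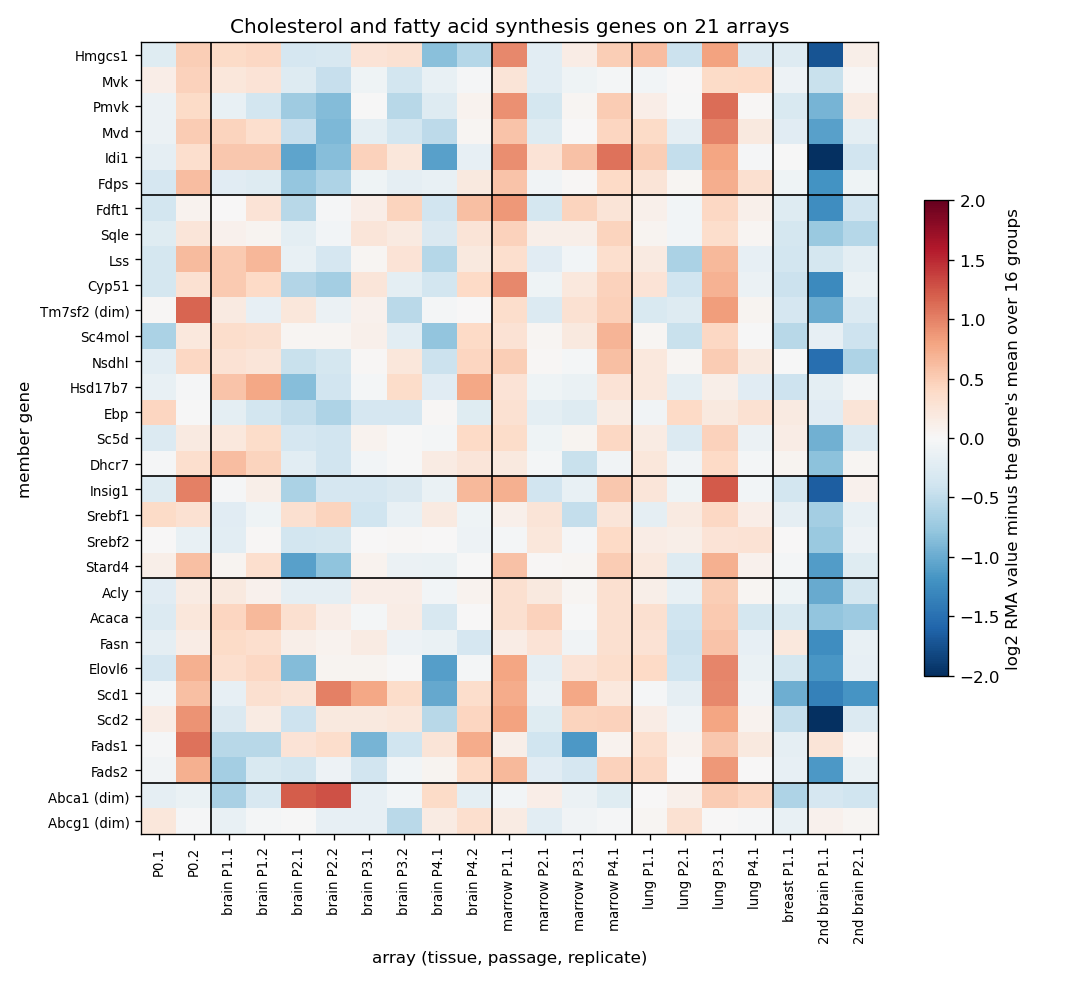
Each of the 31 measured members (rows, in pathway order) on each of the 21 arrays (columns), as the log2 RMA value minus the gene's mean over the 16 groups; horizontal lines part the roles and vertical lines part the tissues. The column of second brain P1 is blue for most genes and that of lung P3 red for most, and the arrays of brain P2 are blue in the sterol rows but red for Abca1, which like Abcg1 and Tm7sf2 was too dim to be kept.

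The parental arrays, which every comparison with P0 rests on, were themselves apart in this pathway. On P0 replicate 2, 25 of 28 members were higher than on replicate 1, with a median difference of 0.50, and the median difference over all genes was 0.06. Insig1, the sterol-regulated anchor of SCAP, read 8.91 and 10.17 there, and Fads1 9.19 and 10.29. The arrays of brain P4 were apart in the same way, with 24 of 28 members higher on replicate 2 and a median difference of 0.46 against -0.11 over all genes. At brain P1, P2 and P3 the pairs lay close, with 16, 17 and 14 of 28 higher on replicate 2 and medians of 0.04, 0.05 and 0.00. Over all genes the medians there were -0.06, -0.08 and -0.20. Of all genes, 59% were higher on replicate 2 at P0, and 40.8%, 39.7%, 25.5% and 37% at brain P1 to P4. The changes from P0 below therefore carry a wide error, and their medians are also given with each parental array left out.

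**Figure D2:**
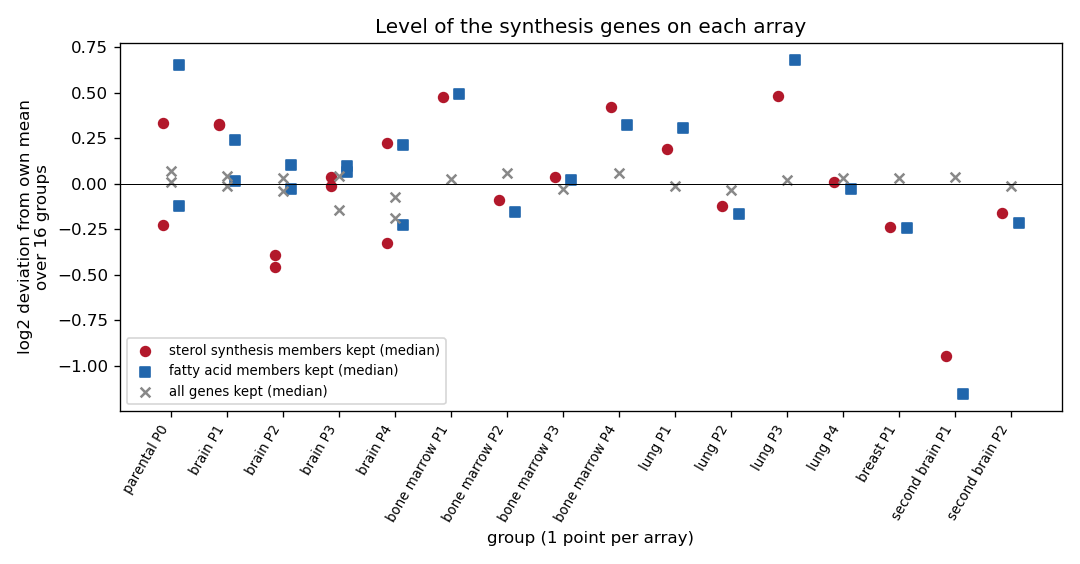
Median log2 deviation of the kept sterol synthesis members (red circles), the kept fatty acid members (blue squares) and all 7300 kept genes (grey crosses) from their own means over the 16 groups, 1 point per array. The red circles of brain P2 lie together at -0.46 and -0.39, those of P0 and brain P4 lie far apart, and second brain P1 is the lowest in both colours.

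In the first brain experiment the pathway stood near or slightly above P0 at P1 and below it at P2. At brain P1, 0 of 28 members were called in limma, where 5.55% of all genes were, and 6 of 28 had an unadjusted p under 0.05 (22.2% of all genes). The median member change was 0.17 and that of all genes -0.02, and it was -0.13 and 0.42 without P0 replicates 1 and 2. The 10 kept genes from squalene to cholesterol had a median of 0.35, with 9 of them above 0. The 6 with an unadjusted p under 0.05 did not share a direction: Hsd17b7, a sterol ketoreductase, stood at 0.76 and Acaca, which makes malonyl-CoA, at 0.56, while Srebf1 was at -0.51, Ebp at -0.49, and the desaturases Fads1 and Fads2 were at -1.09 and -0.81. Fads1 passed at -1.64 (limma, adjusted p = 0.0432) once P0 replicate 1 was left out.

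At brain P2, 3 members fell and 0 rose, among 13.3% of all genes called. The count of 3 of 28 (10.7%) is near that background. The 3 were the sterol carrier Stard4, Pmvk of the mevalonate pathway and Ebp of the late sterol steps. Of 28 members 23 had a negative change, with a median of -0.48 against -0.05 for all genes, of which 54.6% were negative. The median was -0.79 and -0.17 without P0 replicates 1 and 2. By role, all 6 mevalonate genes lay below 0 (median -0.85), as did 9 of 10 genes from squalene to cholesterol (median -0.42), 3 of 4 regulators and carrier (median -0.57) and 5 of 8 fatty acid genes (median -0.18). In all, 8 of 28 had an unadjusted p under 0.05 (28.9% of all genes), each of them negative. The 3 calls became 0 without the filter, with both brain experiments in 1 model, and without the 5 arrays of the highest floor.

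Stard4 moves cholesterol between membranes inside the cell and is a known SREBP2 target. Its values were 7.27 and 7.75 at P0, 7.21 and 7.48 at brain P1, 6.06 and 6.34 at P2, 7.23 and 7.02 at P3, and 7.02 and 7.14 at P4. Both P2 arrays lay well below every other array of that series, while the other passages overlapped P0 or lay just under it. Stard4 fell 2.48-fold at P2 (log2 change -1.31, SE 0.22, adjusted p = 0.00813). Since 6 of 16 groups reached 7.33, its P2 level is that of a dim probe set and the size of the change is uncertain. Without brain P2 replicate 1 the adjusted p was 0.0547.

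Pmvk encodes phosphomevalonate kinase. It read 6.76 and 7.25 at P0, 6.72 and 6.50 at brain P1, 6.16 and 6.0 at P2, 6.86 and 6.31 at P3, and 6.62 and 6.94 at P4. It was lowest at P2, where it fell by 0.93 on the log2 scale (SE 0.25, adjusted p = 0.0472), but only 3 of 16 groups reached 7.33, and it passed the filter through bone marrow and lung cells. With chromosome medians subtracted it was at -0.58 (adjusted p = 0.133). Ebp converts zymosterol-type sterols to their isomers. It read 9.80 and 9.36 at P0, 9.18 and 9.0 at brain P1, 8.89 and 8.74 at P2, 9.03 and 9.03 at P3, and 9.39 and 9.12 at P4. It was below both P0 arrays at P1, P2 and P3 and overlapped them at P4, and its decrease at P2 was 0.76 (change -0.76, SE 0.20, adjusted p = 0.0442). The calls of Pmvk and Ebp were lost when either brain P1 array or either brain P2 array was left out, as was that of Ebp without either P3 array and that of Pmvk without either P4 array, and each was lost with at least 1 parental array left out (for Ebp, adjusted p = 0.231 without P0 replicate 1, and for Pmvk, 0.221 without P0 replicate 2).

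Several enzymes moved as far without passing. Idi1, the isopentenyl diphosphate isomerase, read 8.44 and 8.95 at P0, 9.17 and 9.15 at brain P1, 7.57 and 7.77 at P2, 9.08 and 8.84 at P3, and 7.54 and 8.45 at P4. It was below both P0 arrays at P2, above them at P1, and split at P4, with a change of -1.02 (SE 0.30, adjusted p = 0.0616) at P2. Its second probe set gave -0.44 at P2. Mvd, the mevalonate diphosphate decarboxylase, read 7.13 and 7.75 at P0, 7.70 and 7.59 at brain P1, 6.78 and 6.36 at P2, 7.06 and 6.88 at P3, and 6.72 and 7.29 at P4, with a change of -0.87 (adjusted p = 0.0771) at P2. The P2 arrays of Mvd were low among those of the first brain experiment, with 1 array of P4 between them.

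Fdps, which makes farnesyl diphosphate, read 9.69 and 10.63 at P0, 9.80 and 9.76 at brain P1, 9.24 and 9.41 at P2, 9.94 and 9.85 at P3, and 9.87 and 10.21 at P4. Its P2 arrays lay below all others of the first brain experiment, and its change of -0.83 missed the threshold (adjusted p = 0.0998) but passed without P0 replicate 1 (-1.31, adjusted p = 0.0297). Hmgcs1, which makes HMG-CoA, read 8.58 and 9.32 at P0, 9.20 and 9.23 at brain P1, 8.48 and 8.50 at P2, 9.09 and 9.12 at P3, and 7.98 and 8.25 at P4. Its lowest passage on brain was thus P4, at -0.83 (unadjusted p = 0.0072, adjusted p = 0.17 in limma), and it stood at -0.46 at P2.

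Not every member was low at brain P2. Scd1, a stearoyl-CoA desaturase, read 12.11 and 12.86 there and 11.79 and 12.45 at P0, so the pairs overlapped, and Srebf1 read 8.60 and 8.72 at P2 and 8.66 and 8.59 at P0. Acaca and Fasn, enzymes of fatty acid synthesis, were at 0.25 and 0.12. Abca1, the LXR-driven cholesterol exporter, was chosen for mention after its values were seen. It read 6.46 and 6.52 at brain P2, 5.06 and 5.12 at P0, 4.60 and 4.92 at brain P1, and between 4.62 and 5.75 on all other arrays. Its brain P2 arrays stood above the other 19. It was too dim for the filter, and in the fit without a filter its log2 change at P2 was 1.40 (SE 0.25, adjusted p = 0.0718). Abcg1, another exporter, read 5.50 and 5.33 at brain P2 and 5.73 and 5.47 at P0, and overlapped it there.

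**Figure D3:**
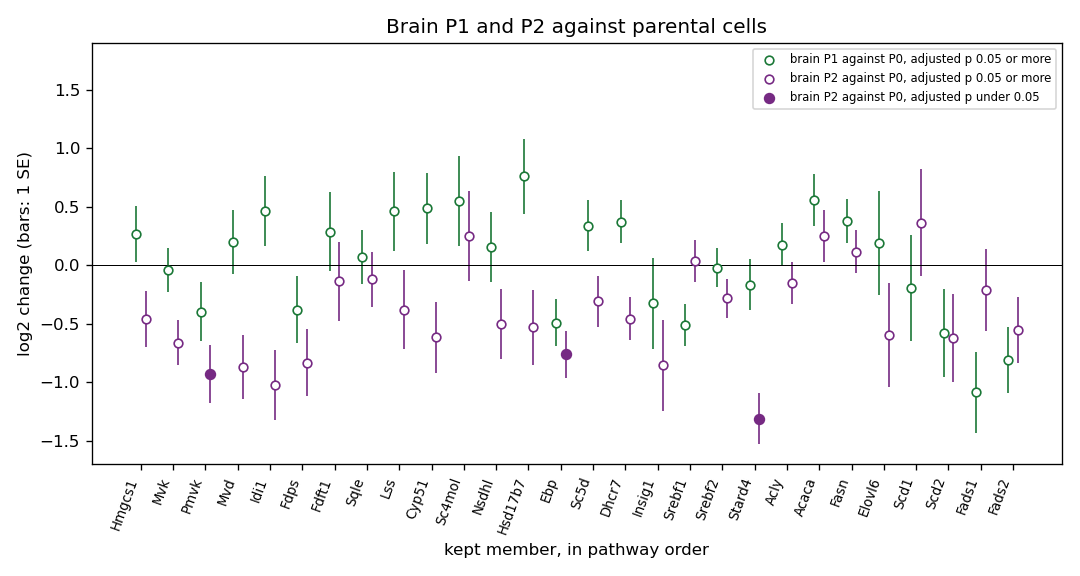
Log2 change from P0 (points) with 1 standard error (bars) for the 28 kept members in pathway order, at brain P1 (green) and brain P2 (purple, filled where the adjusted p was under 0.05), n = 2 arrays a group. The sterol genes on the left lie mostly above 0 at P1 and below 0 at P2, and the 3 filled points are Pmvk, Ebp and Stard4.

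The step from brain P1 to P2 does not use the parental arrays, and was compared after the values had been seen. Stard4 fell (log2 change -1.15, SE 0.22, adjusted p = 0.0443) and was the only member of 28 called, where 1.88% of all genes were, and 12 of 28 had an unadjusted p under 0.05 (19.7% of all genes), 10 of them lower. The median change was -0.49 against -0.01 over all genes. Both P2 arrays lay below both P1 arrays for 23 of 28 members, and for 29.0% of all genes. Against P0 this held for 16 of 28 members and 33.5% of all genes. Next in line were Idi1 (-1.49, adjusted p = 0.0504), Dhcr7, the last enzyme of the pathway (-0.83, adjusted p = 0.063), and Hsd17b7 (-1.29, adjusted p = 0.0835), while Srebf1 (0.55) and Fads1 (0.87) ran the other way with unadjusted p = 0.0141 and 0.0335 in limma. The call of Stard4 was lost when any 1 brain P1, P2, P3 or P4 array was left out, with the highest adjusted p = 0.272 without brain P1 replicate 2.

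At P3 and P4 on brain the median member was near P0, but the 6 mevalonate genes had medians of -0.34, with 4 of them below 0, and -0.41, with all 6 below 0. Over all genes the medians were -0.10 and -0.19, with 62.9% and 73.6% of genes below 0. At P3, 0 of 28 were called in limma (0.658% of all genes) and 4 had an unadjusted p under 0.05 (13.6% of all genes), all lower: Srebf1 (-0.63), Fads1 (-1.20), Ebp (-0.55) and Mvk, mevalonate kinase (-0.52). At P4, 0 were called (1.01% of all genes) and 2 had an unadjusted p under 0.05 (16.2% of all genes), Hmgcs1 and Idi1, both lower. The median members stood at 0.03 and -0.13 and moved to -0.31 and -0.45 without P0 replicate 1 and to 0.26 and 0.14 without P0 replicate 2. With P1 and P2 set against P3 and P4, 0 of 28 members were called although 27.5% of all genes were, and 2 of 28 had an unadjusted p under 0.05 (41.5% of all genes): Acaca (0.44) and Fasn (0.33), both higher early. Brain P1 and P2, pooled in that comparison, stood on either side of P0 for most sterol genes.

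Genes of proliferation moved with the pathway in some groups. The summed linear level of 11 proliferation genes lay at 6144 to 6745 on the arrays of brain P2 and 8812 on that of second brain P1, and between 11670 and 15726 on the other 18 arrays. Over the 16 groups r between the medians of the sets was 0.489 and Spearman's rho 0.241, as a description (r = 0.495 without second brain P1 and lung P3). On lung P3, where the synthesis genes were highest, the proliferation sum was 11670. The part of growth rate in the levels of the synthesis genes was not tested. A median profile over the 16 groups was taken from 6 sterol genes called in these data: Hmgcs1, Idi1, Pmvk, Fdps, Nsdhl and Ebp. Of the 5 other genes most like it, Hs2st1, a heparan sulfate sulfotransferase, had the highest Pearson r (0.942). Tmem41b (0.921), Tram1 (0.916), Pcyox1 (0.915) and Aldh9a1 (0.901) followed. These are the top of all kept genes, and their r without second brain P1 and lung P3 was not computed.

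The second adaptation to brain held the lowest levels of the series. On the single array of second brain P1, 22 of 28 members were at their lowest of all 21 arrays, as were 6.11% of all genes, and 26 of 28 lay below both arrays of brain P1, as did 38.3% of all genes. Likewise 26 of 28 lay below both P0 arrays, as did 38.2% of all genes. Compared after these values had been seen, 5 members fell from P0 to second brain P1 and 0 rose, where 1.55% of all genes were called, and 23 of 28 had an unadjusted p under 0.05 (17.5% of all genes), all lower. The median was -1.08 against 0.00 over all genes, and -1.32 and -0.84 without P0 replicates 1 and 2. Between second brain P1 and brain P1, which had the same 21 days on the same kind of tissue, 12 members were lower and 0 higher, where 6.99% of all genes were called, and 22 of 28 had an unadjusted p under 0.05 (23.9% of all genes), with a median of -1.28 against 0.05. The 5 calls became 0 without P0 replicate 2 and 1 without either brain P1 array, and the 12 became 3 and 4 without brain P1 replicates 1 and 2. Without the 5 arrays of the highest floor both counts were 0, and without the filter they were 0 and 1.

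By the probe set used, Idi1 had the largest change of the members. It read 5.98 on second brain P1, where the next lowest array of the series read 7.54, and 8.23 on second brain P2. The log2 difference was -3.18 from brain P1 (SE 0.37, adjusted p = 0.00258) and -2.72 from P0 (adjusted p = 0.0161). Its second probe set gave -1.78 from P0, less than the change of Scd2 or Hmgcs1. The second brain P1 values of Idi1, Hmgcs1, Stard4 and Mvd lay under 7.33, the level of dim probe sets, so the sizes of their changes are uncertain. Scd2, the stearoyl-CoA desaturase found in most mouse tissues, read 10.04 on second brain P1 and 11.93 on second brain P2, against 12.34 and 13.09 at P0 and 11.91 and 12.36 at brain P1. It lay 1.60 below the next lowest array, and the log2 changes were -2.67 from P0 (SE 0.46, adjusted p = 0.034) and -2.09 from brain P1 (adjusted p = 0.0312).

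Hmgcs1 read 7.08 on second brain P1 and 8.94 on second brain P2, so that the P2 array lay between the P0 arrays. It fell at second brain P1 by 1.86 on the log2 scale (change -1.86, SE 0.29, adjusted p = 0.0257) and lay below brain P1 (-2.13, adjusted p = 0.00535). Insig1 read 7.51 and then 9.25, against 8.91 and 10.17 at P0, 9.14 and 9.29 at brain P1, 8.53 and 8.84 at P2, 8.83 and 8.88 at P3, and 9.03 and 9.81 at P4. The change of Insig1 at second brain P1 was -2.03, but with its wide parental pair it missed the threshold (SE 0.48, adjusted p = 0.0844), and passed without P0 replicate 1 (-2.66, adjusted p = 0.0396).

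Cyp51 read 7.55 on second brain P1 and 8.69 on second brain P2, against 9.35 and 9.22 at brain P1, 8.23 and 8.13 at P2, 9.06 and 8.63 at P3, 8.46 and 9.22 at P4, and 8.47 and 9.13 at P0. It was 3.33-fold lower than at brain P1 (-1.74, SE 0.37, adjusted p = 0.0286). Nsdhl, a sterol dehydrogenase of the demethylation complex, read 7.69 and then 8.57, against 8.98 and 9.62 at P0 and 9.48 and 9.43 at brain P1, so both arrays of the second experiment lay below both groups (second P1 against brain P1, -1.76, adjusted p = 0.0251). Stard4 read 6.03 and then 6.90, with second brain P1 just under the lower brain P2 array, and fell from P0 by 1.48 (change -1.48, SE 0.27, adjusted p = 0.0401). The fifth gene called from P0 was Fasn (-1.22, adjusted p = 0.0415). Against brain P1 the other calls were Fasn (-1.60), Dhcr7 (-1.35), Acly, the ATP citrate lyase (-1.15), Acaca (-1.32), Sc5d, the lathosterol desaturase (-1.24), Mvd (-1.48) and Stard4 (-1.31).

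Exceptions ran through several roles. Fads1 read 9.47 on second brain P1, above both arrays of brain P1 (8.65 and 8.66) and between those of P0. Lss, the lanosterol synthase, and Sc4mol (Msmo1 in the annotation), the sterol methyl oxidase, were at 8.32 and 9.29 there, within or near the range of P0 (8.33 and 9.30 for Lss, 8.82 and 9.67 for Sc4mol). Hsd17b7 read 8.44, against 8.49 and 8.61 at P0. Srebf1 and Srebf2, which encode the transcription factors, were both at their lowest of all arrays, at 7.59 and 8.65, against 8.66 and 8.59, and 9.40 and 9.23, at P0.

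**Figure D4:**
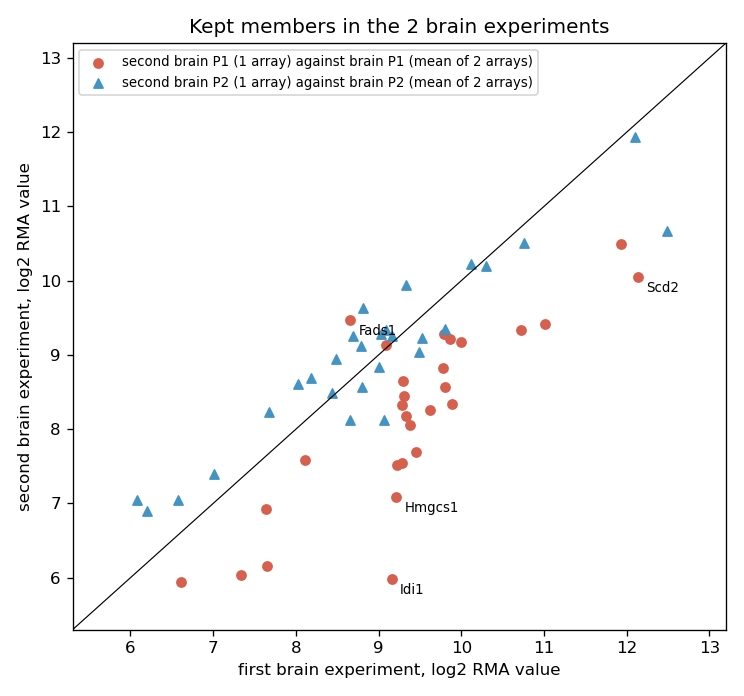
Log2 RMA value of each of the 28 kept members in the second brain experiment (vertical axis, 1 array) against the first (horizontal axis, mean of 2 arrays) at P1 (red circles) and P2 (blue triangles), with the line of equal values. Most circles lie below the line, Idi1, Hmgcs1 and Scd2 farthest, with Fads1 above it, and the triangles lie on both sides of it.

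On second brain P2, 7 of 28 members, and 47% of all genes, lay above their own mean over the groups. The median member was at -0.16. Nsdhl, Scd1 and Acaca were below both P0 arrays there, as were others, among them Idi1, Mvk, Mvd, Sqle, Stard4, Scd2 and Srebf1. Hmgcs1, Pmvk, Cyp51 and Insig1 lay between the P0 arrays. Since most members were lowest on second brain P1, the comparisons that pool both passages rest largely on that 1 array. Both passages of the second experiment against P0 gave 0 called members in limma (0.315% of all genes), with all 28 below 0, a median of -0.68 against -0.02, and 18 of 28 at an unadjusted p under 0.05 (13.9% of all genes). Without the array of second brain P1 the median was -0.31. Against the first experiment at P1 and P2, 7 members were lower and 0 higher, where 13.3% of all genes were called, and 15 of 28 had an unadjusted p under 0.05 (28.0% of all genes), 14 of them lower. The 7 were Acaca (-1.13, adjusted p = 0.00732), Fasn (-0.92, adjusted p = 0.00848), Idi1 (-1.31, adjusted p = 0.0142), Acly (-0.66), Scd1 (-1.62), Hmgcs1 (-0.84) and Nsdhl (-1.0). Their number was 3 without either brain P1 array or brain P2 replicate 2, 4 without brain P2 replicate 1, and 0 without the filter or the 5 arrays of the highest floor. The second P2 array alone, set against brain P2, gave 0 calls and a median of 0.17, with Idi1 at 0.56 and Hmgcs1 at 0.45.

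Scd1 was low on both arrays of the second experiment. It read 10.49 and 10.67 there and 10.87 on breast P1, against 11.79 and 12.45 at P0, 11.68 and 12.17 at brain P1, 12.11 and 12.86 at P2, 12.62 and 12.22 at P3, and 10.83 and 12.20 at P4. Both second brain arrays lay below all others of the series. Acaca had the same pattern with 8.06 and 8.12, against 8.58 and 9.07 at P0 and from 8.45 to 9.50 on the remaining arrays. Acaca and Fasn had the lowest p-values of the members between the experiments. With the second P2 array alone against brain P2, Acaca stood at -0.95 but Fasn at -0.25. The differences of Idi1 and Hmgcs1 turned with the passage used.

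On bone marrow and lung the pathway was at or above P0 in some passages and never called. Over the 4 bone marrow passages against P0, 0 of 28 members were called in limma (0.370% of all genes) and 2 had an unadjusted p under 0.05 (8.68% of all genes), Idi1 (0.64) and Fads1 (-0.87), with a median of 0.14 against -0.01. For the lung passages 0 were called (0.205% of all genes) and 0 had an unadjusted p under 0.05 (5.21% of all genes), with a median of 0.06 against -0.05. Left without P0 replicates 1 and 2, the bone marrow medians were -0.15 and 0.44 and the lung medians -0.20 and 0.35, so the parental array chosen set the sign.

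Single passages had 0 called members each in limma. On bone marrow P1, P2, P3 and P4 the share of all genes called was 0.123%, 0.151%, 0.274% and 0.219%, the members at an unadjusted p under 0.05 were 5, 0, 3 and 2 (of all genes, 3.18%, 5.96%, 8.66% and 5.66%), and the median members were 0.36, -0.20, -0.06 and 0.30. Pmvk is in both lists that follow, and it was kept by the filter only through bone marrow P1, bone marrow P4 and lung P3, so its values there support nothing. All 5 at bone marrow P1 were higher: Hmgcs1 (0.83), Cyp51 (0.98), Pmvk (0.78), Idi1 (0.86) and Fdft1, the squalene synthase (1.02). On lung P1, P2, P3 and P4 the share called was 0.151%, 0.0411%, 0.0548% and 0.0822%, the members at an unadjusted p under 0.05 were 1, 1, 5 and 0 (of all genes, 7.97%, 2.84%, 3.84% and 4.63%), and the medians were 0.11, -0.31, 0.53 and -0.12. All 5 at lung P3 were higher: Pmvk (0.98), Fasn (0.59), Mvd (0.80), Acly (0.52) and Hmgcs1 (0.67). The order of the passages differed between the tissues, bone marrow being highest at P1 and P4 and lung at P3.

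Lung P3 held the highest group mean for 14 of 28 members, Pmvk among them, as for 7.22% of all genes. Bone marrow P1 and P4 held it for 5 and 4 members (3.34% and 6.66% of genes). Pmvk read 7.79, 6.52, 6.92 and 7.38 on bone marrow P1 to P4 and 7.0, 6.86, 7.98 and 6.90 on lung P1 to P4. Insig1 read 9.88, 8.79, 9.02 and 9.70 on bone marrow, then 9.41, 9.08, 10.39 and 9.12 on lung. For Insig1, bone marrow P1 and P4 and lung P3 were the highest of their tissue, and the array of lung P3 alone lay above both P0 arrays. Pmvk was kept by the filter only through those groups, so its order there supports nothing. Fdft1 read 11.46, 10.23, 11.03 and 10.85 on bone marrow, then 10.68, 10.53, 10.99 and 10.68 on lung, with 10.21 and 10.66 at P0, 10.59 and 10.85 at brain P1, 10.03 and 10.57 at P2, 10.71 and 11.03 at P3, 10.20 and 11.19 at P4, and 9.34 and 10.20 on second brain P1 and P2. Its highest value was thus bone marrow P1 and its lowest second brain P1.

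Elovl6, which extends palmitate, read 10.29, 9.32, 9.78 and 9.86 on bone marrow P1 to P4 and 9.91, 9.10, 10.47 and 9.36 on lung, against 9.17 and 10.21 at P0, 9.84 and 9.92 at brain P1, 8.63 and 9.55 at P2, 9.56 and 9.50 at P3, 8.40 and 9.47 at P4, and 8.34 and 9.33 on second brain P1 and P2. The groups overlapped widely, with second brain P1 and 1 array of brain P4 lowest. Idi1 read 9.56, 8.89, 9.21 and 9.71 on bone marrow, then 9.11, 8.15, 9.41 and 8.60 on lung, and Stard4 7.73, 7.17, 7.18 and 7.65 on bone marrow, then 7.36, 6.89, 7.86 and 7.23 on lung. For Stard4 none of these 8 values reached down to the arrays of brain P2 or second brain P1. Hmgcs1 read 9.77, 8.61, 8.96 and 9.32 on bone marrow, then 9.43, 8.39, 9.62 and 8.53 on lung, with bone marrow P1, lung P1 and lung P3 above both P0 arrays and bone marrow P4 level with the higher of them.

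**Figure D5:**
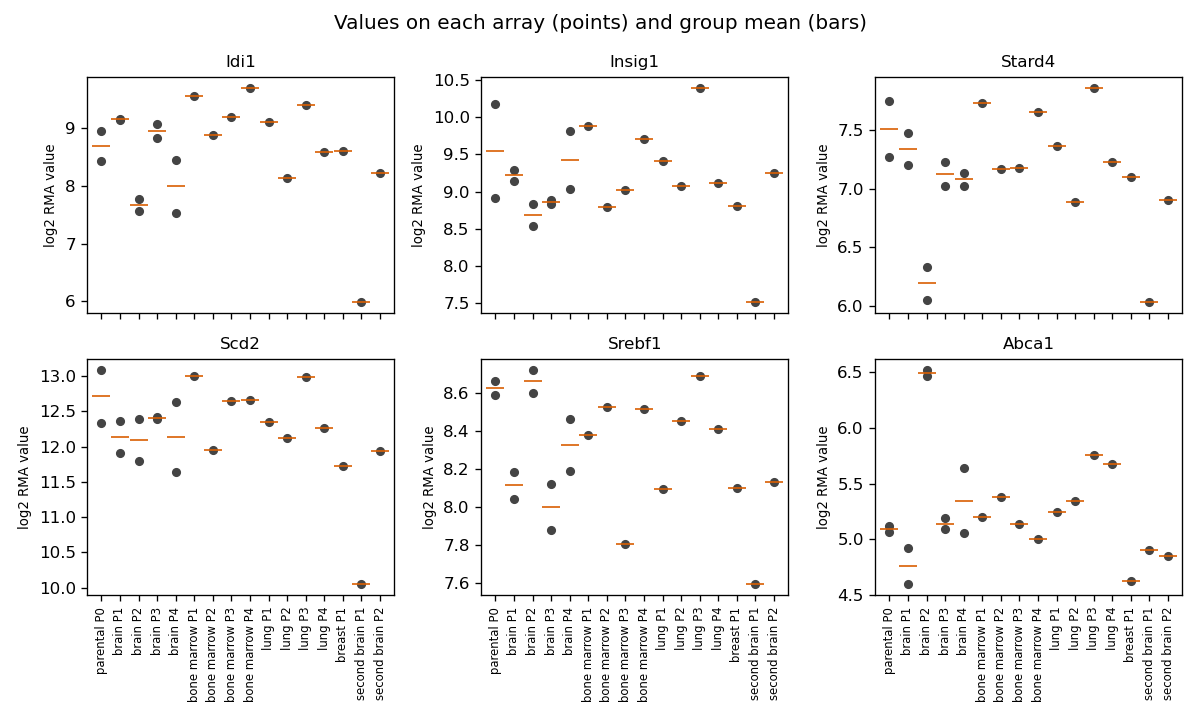
Log2 RMA value on each array (points) and group mean (bars) of 6 genes over the 16 groups, each with its own vertical axis that does not start at 0. Idi1, Insig1, Stard4 and Scd2 are lowest on second brain P1, the 2 arrays of brain P2 stand low for Stard4 and high for Abca1, and Srebf1 is not low at brain P2.

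Between tissues, the early brain passages of the first experiment were compared with the P1 and P2 passages on bone marrow and lung. Here 4 members were lower on brain and 0 higher, where 23.6% of all genes were called, so that 4 of 28 (14.3%) is below the background, and 7 of 28 had an unadjusted p under 0.05 (36.3% of all genes), all lower. Pmvk was lower by 0.70 (change -0.70, SE 0.18, adjusted p = 0.0241), Ebp by 0.53 (-0.53, adjusted p = 0.0313), Stard4 by 0.52 (-0.52, adjusted p = 0.0428) and Fdps by 0.67 (-0.67, adjusted p = 0.0458). Pmvk was kept by the filter only through bone marrow P1, bone marrow P4 and lung P3, the first of which enters this comparison, so its difference was favoured by the filter. With each chromosome's median subtracted, Fdps was at -0.32 (adjusted p = 0.318) and Pmvk at -0.35 (adjusted p = 0.17). Ebp read 9.68, 9.17, 9.11 and 9.52 on bone marrow P1 to P4 and 9.30, 9.77, 9.57 and 9.66 on lung, and Fdps 10.59, 9.96, 10.05 and 10.42, and 10.28, 10.06, 10.75 and 10.34. All 4 early brain arrays of Fdps (9.24 to 9.80) lay below these, and those of Ebp (8.74 to 9.18) overlapped bone marrow P2 and P3. The median member was at -0.18 and that of all genes at 0.00. All 4 calls were lost when any single array of brain P1 or P2 was left out, without the filter, and with both brain experiments in 1 model, and 2 remained in number without any 1 array of P3 or P4.

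Breast P1, the 1 array of cells on the tissue of origin, had 0 members called in limma (0.260% of all genes), 1 with an unadjusted p under 0.05 (7.41% of all genes), Srebf1 at -0.52, and 25 of 28 members below P0, with a median of -0.37 against 0.00. Without P0 replicates 1 and 2 the median was -0.62 and -0.05. Its values for Idi1 (8.61), Hmgcs1 (8.56), Cyp51 (8.40) and Insig1 (8.81) lay close to the lower P0 array (8.44, 8.58, 8.47 and 8.91).

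Other genes of sterol and lipid metabolism, 36 by a list of their own, had 25 kept genes. At brain P2, 1 rose and 4 fell, where 13.3% of all genes were called. Tmem97, a sterol-responsive membrane protein that binds NPC1, fell by 1.31 on the log2 scale (change -1.31, adjusted p = 0.00899), Aacs, the acetoacetyl-CoA synthetase, by 1.01 (-1.01), and Elovl1 by 0.82 (-0.82), and Mylip, an LXR target that encodes a ubiquitin ligase, rose by 0.99 (adjusted p = 0.0201). The values of Mylip were 9.32 and 9.18 at brain P2, 8.07 and 8.47 at P0, 8.71 and 8.37 at brain P1, 7.45 and 7.48 at P3, 7.99 and 7.69 at P4, and 7.27 and 7.72 in the second experiment. Its brain P2 arrays were thus the highest of the first brain experiment and its second brain P1 array the lowest of it and the second together. Tmem97 read 8.71 and 8.49 at brain P2, 9.79 and 10.02 at P0, 10.21 and 10.10 at brain P1, and 9.17 on second brain P1, low where Stard4 and Idi1 were low. Between brain P1 and P2, where 1.88% of all genes were called, Tmem97 was the only one of the 25 called (-1.55, adjusted p = 0.0182).

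In the other comparisons, early brain against late brain had 7 of the 25 higher and 3 lower, where 27.5% of all genes were called, with Mylip (1.24, adjusted p = 0.000772) and Elovl1 (-0.85, adjusted p = 0.00247) at the lowest p. Early brain against early bone marrow and lung had 2 higher and 3 lower (23.6% of all genes), among them Me1, the malic enzyme (0.79, adjusted p = 0.00522). Between the experiments, where 13.3% of all genes were called, Mylip (-1.40) was lower and Erlin1, an endoplasmic reticulum protein tied to the SCAP and INSIG complex (0.81), higher in the second, and Mylip was also lower on second brain P1 than at brain P1 (-1.27, adjusted p = 0.0236). At brain P4, 1 of the 25 fell, where 1.01% of all genes were called. In the other 15 comparisons, all with P0, 0 of the 25 were called in limma (0.0411% to 5.55% of all genes). Between 0 and 8 of the 25 had an unadjusted p under 0.05 there (2.84% to 22.2% of all genes).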

How the data were processed

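The 21 samples, grouped by their labels, are cultures of N202 cells hybridised to the Affymetrix Mouse Gene 1.0 ST array. The deposited table gives log2 values by probe set, produced by the authors with RMA in the Affymetrix Expression Console (background correction, quantile normalization, median polish). They were used without further scaling. It has 34760 probe sets: 21640 with a single symbol, 1321 with more than 1 and 11799 unnamed here. RefSeq (GRCm38.p6) held 21553 of the gene identifiers and changed 0 symbols. For genes with several probe sets, 3 members among them, the one with the highest mean was used. As many probe sets as the study kept were kept, by the largest group mean, and the lowest was 7.33.

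One model with 16 group means was fitted in limma 3.58.1 (R 4.3.3), with 5 degrees of freedom left among arrays and 3.9 added by the prior, and p was adjusted by Benjamini-Hochberg over all kept probe sets. Python 3.11.15, numpy 2.4.6, pandas 2.3.3 and matplotlib 3.10.9 were used for summaries and figures. The fit was tested on simulated data. Comparisons share the parental arrays, so their changes are given side by side and not correlated.

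The members, the lists and the rules were chosen with earlier results of these data known. Values on single arrays are given for 14 members: first those that passed at brain P1 or P2, between early and late brain, on bone marrow or lung, or between brain and those tissues (Stard4, Ebp, Pmvk and Fdps), then those with the widest range of group means. Abca1, Acaca, Fads1, Srebf1 and the other members given on single arrays were singled out after their values were seen. Of the other genes of the pathway at most 6 are named, by the lowest adjusted p. Of the marker lists, 1 gene each of proliferation, oligodendrocytes, adipocytes and blood had no probe set of its own. Promoter windows came from RefSeq, and a member with none is named only.

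Alternatives changed the filter (none, or the brightest 7000 probe sets), the scaling (cyclic loess, equal medians of the arrays, or each chromosome's median subtracted), the variance (a trend, estimated robustly) and the choice of probe set (a gene's mean over all of its own). Others were a replicate block, both brain experiments in 1 model with a random block, and leaving out each array of a pair. Leaving out the 5 arrays of the highest floor, leaving out the array of second brain P1, and the comparisons brain P2 against brain P1 and second brain P1 against P0 or brain P1 were added after the values had been seen. The labels give the brain arrays no replicate number, and the block sets the first arrays against those labelled technical replicates.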

Additional observations from a re-analysis of the deposited data

Results flagged for a closer look

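In 7 of 28 genes the P1 and P2 cells of the second brain experiment differed from those of the first in the limma fit, all lower in the second: Acaca (-1.13), Fasn (-0.92), Idi1 (-1.31), Acly (-0.66), Scd1 (-1.62), Hmgcs1 (-0.84) and Nsdhl (-1.0). Of all genes, 13.3% were called there. With the second P2 array alone against brain P2, none of the 7 passed, and Idi1 and Hmgcs1 stood above 0. In 4 of 28 genes (14.3%, against 23.6% of all genes) early brain cells differed from early bone marrow and lung cells, all lower on brain: Pmvk (-0.70), Ebp (-0.53), Stard4 (-0.52) and Fdps (-0.67). Pmvk was kept by the filter only through bone marrow and lung groups, which favours this difference. No group held the 4 or more arrays that a check for a single deviating array needs.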

How the results depend on the processing

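Medians below are log2 changes of the 28 members and counts are members called in limma. The share of all genes called is not given for any alternative, here or above. A changed count therefore cannot be told apart from a change over all genes. Left without each array of a pair in turn, medians ran from -0.13 to 0.42 at brain P1, -0.79 to -0.17 at brain P2, -0.31 to 0.26 at P3, -0.45 to 0.14 at P4, -0.62 to -0.053 on breast, -0.15 to 0.44 on bone marrow, -0.20 to 0.35 on lung, -0.92 to -0.44 for the second brain experiment and -1.32 to -0.84 for second brain P1 against P0, the extremes being those without P0 replicates 1 and 2. Counts ran from 0 to 1 at brain P1, 0 to 3 at brain P2, 0 to 2 for brain P2 against P1, 0 to 5 for early brain against early bone marrow and lung, 0 to 1 for the second experiment against P0, 3 to 8 for second against first, 0 to 4 for second brain P1 against P0 and 3 to 13 for second brain P1 against brain P1. Without the filter, counts were 0 at brain P2, 0 for P2 against P1, 0 for early brain against bone marrow and lung, 0 for second against first, 0 for second brain P1 against P0 and 1 for second brain P1 against brain P1. With the stricter filter they were 2 for P2 against P1, 2 for early brain against bone marrow and lung and 8 for second brain P1 against P0. Brain P2 against P1 gave 3 with equal medians, 2 with a variance trend and 2 with chromosome medians subtracted. The latter also gave 1 for early against late brain, 2 for early brain against bone marrow and lung and 4 for second against first, and cyclic loess gave 2 for early brain against bone marrow and lung.

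With both experiments in 1 model, medians were -0.34 at brain P1, -0.043 for P2 against P1 and -0.42 for early brain against bone marrow and lung, and counts were 0 at brain P2, 0 for P2 against P1 and 0 for early brain against bone marrow and lung. Without the 5 arrays of the highest floor, counts were 0 at brain P2, 0 for P2 against P1, 0 for second against first, 0 for second brain P1 against P0 and 0 against brain P1. Without the array of second brain P1, the count of second against first was 0 and its median 0.17, Hmgcs1 was at 0.45 and Idi1 at 0.56, and the median of the second experiment against P0 was -0.31. The replicate block gave 3 for brain P2 against brain P1, and moved no other count of members beyond 1.5 times. Settings without the filter tested more genes and those without an array held fewer arrays. The cause of the shifts was not tested.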
